A study of Sus scrofa with 32 samples.

Results

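The alarmins and antimicrobial proteins of the endometrial epithelium were examined as 7 gene symbols, S100A8, S100A9, S100A12, SAA3, DEFB1, LTF and PIGR, among 30185 counted porcine genes. The symbols matched 8 NCBI gene IDs, since DEFB1 names 2 genes of the annotation. These genes were chosen with the difference between pregnant and nonpregnant gilts already in view, so that difference is described here with no test. A gene chosen in this way stands high in 1 group of libraries, so most differences between tissue compartments are described as well, and a test is given for few of them.

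Alarmins are proteins that cells release on stress or damage and that alert the immune system, and antimicrobial proteins act on microbes directly at mucosal surfaces. The calgranulins S100A8, S100A9 and S100A12 are calcium-binding proteins made by neutrophils, by monocytes and by stimulated epithelia. S100A8 and S100A9 pair to form calprotectin, which withholds metal ions from microbes, and both calprotectin and S100A12 are ligands of pattern recognition receptors. SAA3 is an acute phase protein made in epithelia, beta-defensins disrupt microbial membranes, lactoferrin (LTF) binds iron in secretions, and the polymeric immunoglobulin receptor (PIGR) carries IgA across an epithelium into the lumen.

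Stroma (S), blood vessels (BV) and the epithelium of the lumen (LE) and of the glands (GE) were cut by laser capture microdissection from frozen endometrial sections taken on Day 14, from 4 cyclic and 4 pregnant gilts. Ovulation was synchronized with hormones in all gilts. The pregnant gilts had been inseminated with semen, whereas the cyclic gilts received seminal fluid without sperm, and pregnant samples came from the hyperemic zones of the uterus after removal of the conceptuses. Each library stood for 1 gilt and 1 compartment and was amplified from picogram amounts of RNA, with no pooling of gilts. Pregnant GE had n = 3, without gilt P41, for whose GE no counts were available, and the other groups had n = 4. Cyclic gilts are named C128, C40, C42 and C78 and pregnant gilts P139, P39, P41 and P43, from the numbers in the labels, and values are given in this order.

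The 31 libraries held between 2415216 and 7081556 counts, and levels are given as CPM, counts scaled to library size, after one normalization over all libraries. A gene with 0 counts in a group was compared against a floor of 3 counts over the group, equal in LE to 0.185 CPM in cyclic and to 0.175 CPM in pregnant gilts. The 10 epithelium markers summed to 2515 to 3564 CPM in LE and to 1777 to 2174 CPM in GE, and to 3.69 to 353 CPM in BV and 12 to 511 CPM in S. Fibroblast markers summed to 4156 to 16722 CPM in LE and to 37132 to 107207 CPM in S. In captures of this kind, fewer cells of a type and less RNA per cell cannot be told apart.

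Of the 8 genes, 5 were detectable in at least 1 compartment, which means that the authors kept them after a minimum CPM. S100A9, S100A12, SAA3, DEFB1 and PIGR were detectable in LE, PIGR in GE, S100A9 in S, and none of the 8 in BV. S100A8, LTF and the second DEFB1 gene fell below that minimum in every compartment and are described by their counts. LE held 91.5% of all S100A9 counts, 89.8% of S100A12, 86.1% of S100A8, 94.3% of SAA3, 91.7% of DEFB1 and 82.1% of PIGR, but 50% of the 40 LTF counts.

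S100A9, the partner of S100A8 in calprotectin (gene ID 100127489, chr4:96236114-96238989 of Sscrofa11.1, minus strand), had the highest level of the group. It had 0 counts in LE of each of the 4 cyclic gilts, whereas LE of the pregnant gilts had 504, 814, 104 and 141 CPM. All pregnant LE libraries were thus far above all cyclic ones, and the pregnant libraries differed among themselves by almost an order of magnitude. The pregnant mean was 391 CPM ± 335 (SD, n = 4). The level pooled over the pregnant libraries was at least 1790-fold higher than the cyclic floor.

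In S, S100A9 had 0 counts in the 4 cyclic gilts and 95.7, 15.6, 12.4 and 8.17 CPM in the pregnant gilts. Gilt P139 stood above the other pregnant gilts in S, and the lower bound of the difference was 229-fold with it and 69.0-fold without it. In BV, 1 count was found over the cyclic gilts, and pregnant gilts had 2.11, 1.52, 1.15 and 0 CPM, a ratio of 14.2 with a 95% counting interval of 2.10 to 606. GE stayed at 0 counts in cyclic gilts and at 3 counts in all in pregnant gilts, at the floor in both. S100A9 was thus abundant in pregnant LE, lower in pregnant S, and at most at a few counts in BV and GE.

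S100A12 (gene ID 100301483, chr4:96225691-96227030, plus strand), which signals through the receptor AGER, had the same order of compartments at lower levels. LE of cyclic gilts had 0 counts, and LE of pregnant gilts had 50.4, 24.2, 13 and 19.5 CPM, at least 134-fold above the floor. S of pregnant gilts had 7.72, 0.380, 1.64 and 1.70 CPM against 0 counts in cyclic S, at least 19.7-fold. In GE the gene had 0 counts in all 7 libraries, and in BV 1 count over the cyclic and 3 counts over the pregnant gilts.

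S100A8 (gene ID 100127488, chr4:96209670-96210603, plus strand) was scarce although it forms calprotectin with S100A9. LE of pregnant gilts had 10.8, 9.55, 1.29 and 1.60 CPM, and 1 count fell on gilt C78. The pooled ratio was 81.3 with a 95% counting interval of 14.2 to 3247. In S, 13 of the 14 counts came from gilt P139, and GE and BV had 0 counts in every library. Per kilobase of exon, which allows genes to be compared, the means in pregnant LE were 507 CPM for S100A9, 74.0 for S100A12 and 15 for S100A8.

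**Figure D1:**
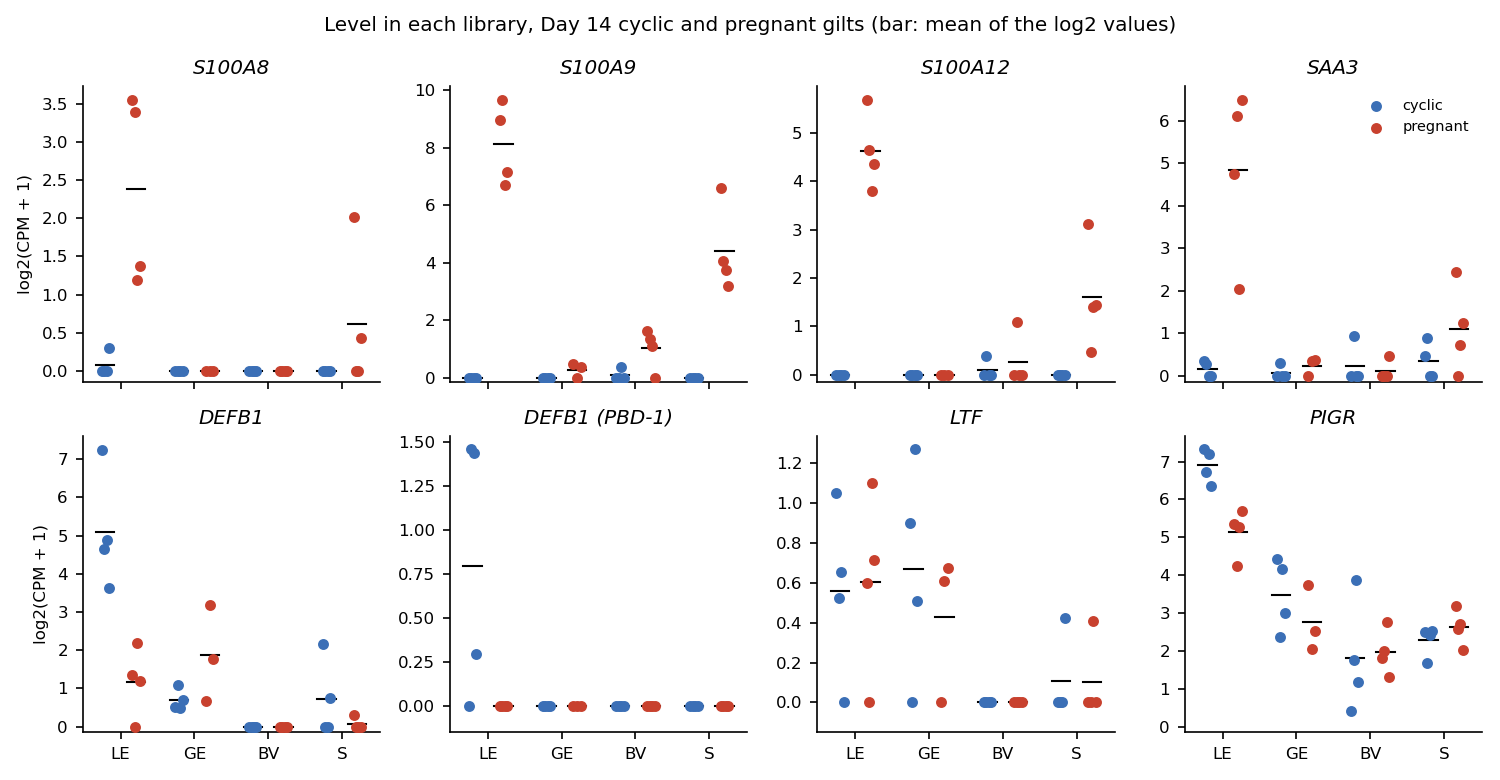
Level of each gene as log2(CPM + 1) in every library, by compartment, with cyclic gilts in blue, pregnant gilts in red and a bar at the mean of the log2 values, each panel on its own axis. S100A9, S100A12, S100A8 and SAA3 stand high in pregnant LE and DEFB1 and PIGR in cyclic LE, while LTF and the DEFB1 gene PBD-1 stay near the axis.

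The proportion of calgranulins differed among pregnant gilts. S100A12 made up 2.89% of the S100A9 and S100A12 counts in LE of gilt P39, with an exact 95% interval of 2.28 to 3.6%. In gilts P43 and P139 the share was 12.2% (9.46 to 15.4%) and 9.09% (7.91 to 10.4%), and gilt P41 lay between them (9.04 to 13.5%). The interval of gilt P39 lay apart from the other intervals, which overlapped each other. These intervals cover counting error only, since 1 LE library stood for each gilt.

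S of the same gilts had shares of 2.38% in gilt P39, 11.6% in gilt P41, 17.2% in gilt P43 and 7.47% in gilt P139, each within a counting interval that overlapped that of LE of the same gilt. S100A9 in S reached 1.91%, 12%, 5.82% and 19.0% of its level in LE in gilts P39, P41, P43 and P139. The summed epithelium markers in S reached 1.58%, 18.2%, 4.23% and 11.9% of LE in the same gilts. Both were lowest in gilt P39, next in gilt P43, and higher in gilts P41 and P139. S100A12 in S reached 1.57%, 12.6%, 8.72% and 15.3% of LE in these gilts, and SAA3 0%, 20.9%, 1.52% and 17.3%. PIGR did not have this order, with 27.2%, 14.8%, 6.02% and 20.5%, and was highest in gilt P39, where the epithelium markers were lowest. Whether RNA of LE in the S captures accounts for S100A9 there was not tested.

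**Figure D2:**
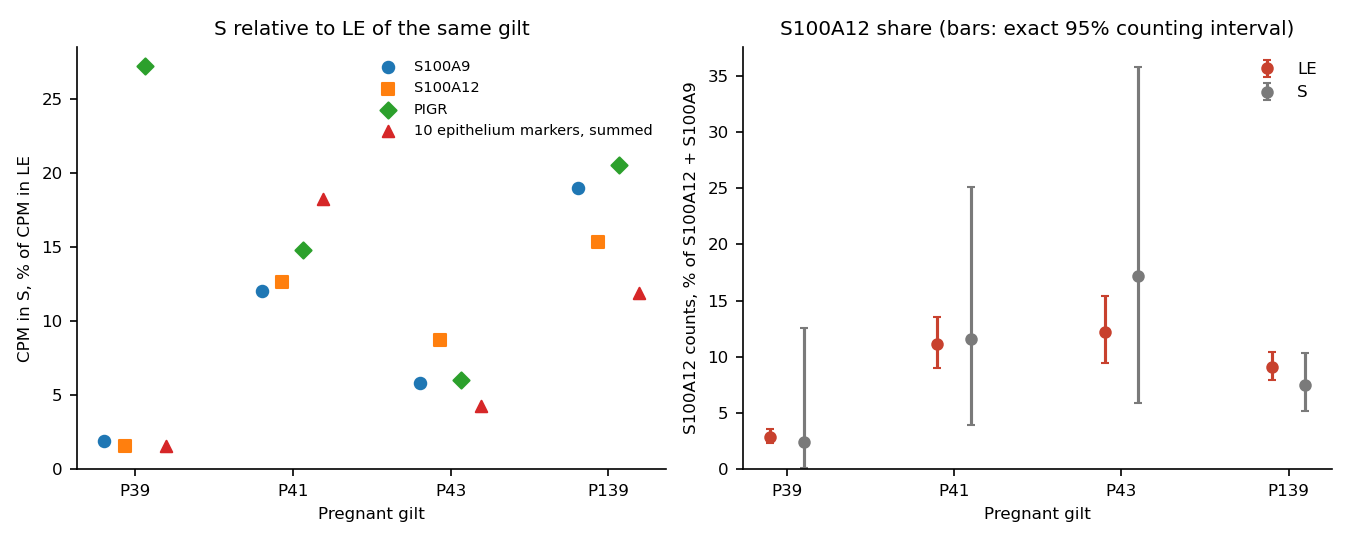
Left, the level in S as a percentage of the level in LE of the same pregnant gilt for S100A9, S100A12, PIGR and the sum of 10 epithelium markers. Right, S100A12 counts as a percentage of S100A12 plus S100A9 counts in LE and S with exact 95% counting intervals. The share in LE is 2.89% in gilt P39 and 9.09 to 12.2% in the other gilts, and S100A9 in S lies between 1.91% and 19.0% of LE.

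The 3 calgranulin genes lie within 29.3 kb of chromosome 4, from 96209670 to 96238989. Since all 3 had their counts almost entirely in pregnant gilts, the 250 bases before their annotated starts in Sscrofa11.1 (RefSeq) are shown. Capitals mark matches, on either strand, to an NF-kappaB-like motif (3 G, any 5 bases and 2 C), TTGCNNAA (C/EBP-like), TGANTCA (AP-1-like) and TATAAA, which were searched along with TTCNNNGAA (STAT-like). S100A8 is from chr4:96209420-96209669 on the plus strand, S100A12 from chr4:96225441-96225690 on the plus strand, and S100A9 from chr4:96238990-96239239 on the minus strand.
S100A8: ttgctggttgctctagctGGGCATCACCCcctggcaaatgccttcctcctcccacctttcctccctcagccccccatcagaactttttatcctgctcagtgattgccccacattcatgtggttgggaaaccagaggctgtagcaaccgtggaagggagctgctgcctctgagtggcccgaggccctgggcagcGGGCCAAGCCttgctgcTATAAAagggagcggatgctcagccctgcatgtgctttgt
S100A12: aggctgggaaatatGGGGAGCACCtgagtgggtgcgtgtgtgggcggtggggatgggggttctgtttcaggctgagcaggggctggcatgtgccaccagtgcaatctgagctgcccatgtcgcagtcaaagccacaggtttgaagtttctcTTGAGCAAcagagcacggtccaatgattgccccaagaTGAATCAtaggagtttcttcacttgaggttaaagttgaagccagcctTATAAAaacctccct
S100A9: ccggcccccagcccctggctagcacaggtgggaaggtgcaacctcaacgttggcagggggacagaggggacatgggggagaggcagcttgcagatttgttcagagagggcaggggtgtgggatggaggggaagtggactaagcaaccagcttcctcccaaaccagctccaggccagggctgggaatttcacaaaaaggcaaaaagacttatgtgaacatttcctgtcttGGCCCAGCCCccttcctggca

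Each of the 3 windows held the NF-kappaB-like letters, which are common, being present in 57.9% of 20640 promoter windows of that length. The C/EBP-like letters stood before S100A12 and in 8.38% of all windows. S100A12 also held the AP-1-like letters, found in 5.47% of all windows, and TATAAA stood before S100A8 and S100A12 and in 10.4% of all. The STAT-like letters, present in 6.37% of windows, were in none of the 3. In S100A8, a pair of NF-kappaB-like matches on opposite strands overlapped. The matches are a description of letters and show no binding.

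SAA3 (gene ID 733603, chr2:41021349-41025950, plus strand) was likewise near 0 in cyclic LE, with 0.268, 0.218, 0 and 0 CPM. LE of pregnant gilts had 25.7, 68.1, 3.14 and 89.3 CPM, a mean of 46.6 ± 39.2 (SD, n = 4). The groups did not overlap, and the order of the pregnant gilts was not that of S100A9, as gilt P43 was highest for SAA3. The pooled ratio was 291 with a 95% counting interval of 80.1 to 2405.

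Outside LE, SAA3 was sparse. S had 5 counts over cyclic and 25 over pregnant gilts, with 4.44, 0, 0.655 and 1.36 CPM in the latter, and the groups overlapped. GE and BV were at or under the floor of 3 counts in both groups.

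DEFB1 (gene ID 404699, synonym PBD-2, on an unplaced scaffold) had the opposite direction in LE. Cyclic LE had 150, 24.2, 28.5 and 11.4 CPM, and pregnant LE had 1.54, 0, 3.57 and 1.28 CPM. The groups did not overlap, and gilt C128 stood far above the other cyclic gilts. The pooled level was 24.8-fold lower in pregnant LE (95% counting interval 17.7 to 35.9), and the fitted log2 fold change was -4.82 (SE 0.98), or -3.54 without gilt C128.

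In GE, DEFB1 had 0.432, 1.15, 0.404 and 0.636 CPM in cyclic gilts and 0.590, 8.12 and 2.39 CPM in gilts P139, P39 and P43. These groups overlapped, and 31 of the 42 pregnant counts came from gilt P39, whose LE library had 0 counts of this gene. S had 22 counts over cyclic gilts, 18 of them in gilt C128, and 1 count over pregnant gilts. BV had 0 counts in all 8 libraries.

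The second gene under the symbol DEFB1 (gene ID 396819, synonym PBD-1, chr15:38076057-38077899, plus strand) had 15 counts in all. They fell on LE of gilts C40, C42 and C78, with 8, 6 and 1 counts, and LE of pregnant gilts had 0 counts, at least 5.29-fold lower. The coding sequences of both genes, read from Sscrofa11.1 (RefSeq), are given to show how far reads of one can be told from the other. They had 108 of 186 aligned bases in common (58.1%), with no shared run over 8 bases, and capitals mark the bases that differ or have no partner in the alignment.
DEFB1 PBD-1: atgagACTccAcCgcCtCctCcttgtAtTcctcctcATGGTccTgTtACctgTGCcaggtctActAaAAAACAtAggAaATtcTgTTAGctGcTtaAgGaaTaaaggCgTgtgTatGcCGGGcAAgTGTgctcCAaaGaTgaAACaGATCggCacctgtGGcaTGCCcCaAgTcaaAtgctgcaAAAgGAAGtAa
DEFB1 PBD-2: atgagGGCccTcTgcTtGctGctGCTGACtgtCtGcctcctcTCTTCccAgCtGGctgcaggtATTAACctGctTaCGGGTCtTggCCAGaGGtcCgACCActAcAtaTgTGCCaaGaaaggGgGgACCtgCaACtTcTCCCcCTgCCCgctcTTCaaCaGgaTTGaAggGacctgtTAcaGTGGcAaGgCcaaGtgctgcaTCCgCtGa

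PIGR (gene ID 397315, chr9:67553094-67574698, minus strand) was the only gene of the group with counts in all 31 libraries. Cyclic LE had 159, 105, 147 and 80.5 CPM, and pregnant LE had 39.8, 18.1, 37.6 and 50.9 CPM. Every pregnant library lay below every cyclic one, with means of 123 ± 36.5 and 36.6 ± 13.6 (SD, n = 4 each), and the pooled level was 3.24-fold lower in pregnant LE (95% counting interval 2.96 to 3.55). The fitted log2 fold change was -1.72 (SE 0.32).

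PIGR in GE had 20.5, 4.15, 17.0 and 7 CPM in cyclic gilts and 12.4, 3.14 and 4.78 CPM in pregnant gilts, with overlapping groups and a log2 fold change of -0.82 (SE 0.65). In S, cyclic gilts had 2.24 to 4.79 CPM and pregnant gilts 3.06 to 8.19 CPM. In BV the ranges were 0.336 to 13.6 CPM and 1.48 to 5.75 CPM, with gilt C42 apart from the other cyclic gilts. PIGR was thus lower in pregnant gilts without overlap in LE, and its groups overlapped elsewhere.

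LTF (gene ID 397649, chr13:29413886-29445751, minus strand) had 20 counts in LE, 17 in GE, 3 in S and 0 in BV. In LE its level was 0.519 CPM ± 0.441 in cyclic gilts and 0.574 CPM ± 0.469 in pregnant gilts (SD, n = 4 each), and the ratio of 1.42 had a counting interval of 0.533 to 4.00. A difference between the groups was not detectable at this depth.

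In LE the groups did not overlap for 4 of the 8 genes in the direction of pregnancy and for 2, DEFB1 and PIGR, in the other, where 10.3% and 9.12% of the detectable genes did so. In S they did not overlap for S100A9 and S100A12, both higher in pregnant gilts, as for 3.62% of the detectable genes. S100A8 in LE and S100A12 in S were not among the detectable genes, so the shares cover another set than the counts. Since the genes were chosen on this comparison, nothing is read from these counts.

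The compartments of a gilt were compared in one fit over 13887 genes, those detectable in at least 1 compartment, with the gilt as a block. S100A12, SAA3 and DEFB1 entered this fit through LE alone, S100A9 through LE and S, and PIGR through LE and GE. A gene that entered only through the higher of the compartments compared had to differ, so such differences are given with no test. Tests are given for PIGR between LE and GE, for S100A9 between LE and S, and for genes other than S100A9 between GE and S. S100A9 was detectable in S and not in GE, and its difference there is given with no test. PIGR was detectable in GE and not in S, so the filter bears on its test there. All these tests use libraries on which the genes were also chosen, so that their p-values are not independent of that choice.

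In cyclic gilts, DEFB1 was 5.75 higher in LE than in GE on the log2 scale (SE 0.87) and 5.43 higher than in S (SE 0.83), in 4 of 4 gilts. PIGR was higher in LE than in GE by 3.49 (SE 0.48, adjusted p = 1.03e-05, edgeR's quasi-likelihood test), in 4 of 4 gilts, and its log2 difference from S was 4.88 (SE 0.53). Over all genes, 19.3% stood higher in cyclic LE than in GE and 21.2% higher in cyclic LE than in S, with an adjusted p under 1%, the limit for a call here. S100A9 and S100A12 had 0 counts in cyclic LE, GE and S and were not compared, and SAA3 had 2 counts in LE and 5 in S. Between GE and S of cyclic gilts, 50.7% of all genes were called. Of the 3 genes of the group compared, edgeR called 0 and DESeq2 0. SAA3 had 1 count in GE and 5 in S, and DEFB1 had 12 and 22, so few counts limit both comparisons. PIGR, with a log2 difference of 1.39 (SE 0.52, adjusted p = 0.0253, edgeR's quasi-likelihood test), was the 1 with an unadjusted p under 0.05.

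In pregnant gilts, S100A9 was higher in LE than in S by 3.75 on the log2 scale (SE 0.49, adjusted p = 7.71e-05, edgeR's quasi-likelihood test), in 4 of 4 gilts, where 17.2% of all genes were called higher in LE. The log2 differences from S were 3.34 for S100A12 (SE 0.66), 4.44 for SAA3 (SE 0.74) and 2.75 for PIGR (SE 0.52), each positive in 4 of 4 gilts. PIGR was higher in LE than in GE by 2.42 (SE 0.56, adjusted p = 0.00193), in 3 of 3 gilts, where 15.6% of all genes were called higher in LE. This call was lost without gilt P39 (adjusted p = 0.0188) or gilt P43 (adjusted p = 0.0362).

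Against GE, S100A9 had 3 counts in pregnant gilts, SAA3 had 2 and S100A12 had 0, so that the differences are given as ratios of pooled levels. S100A9 was 1352-fold higher in LE (95% counting interval 462 to 6559), S100A12 at least 101-fold, and SAA3 219-fold (60.5 to 1816), in 3 of 3 gilts each.

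DEFB1 in pregnant gilts had a log2 difference of -1.38 between LE and GE (SE 1.05), higher in LE in 1 of 3 gilts, and of 3.88 between LE and S (SE 1.55), on 35 and 1 counts. The direction against GE turned without gilt P39, to 0.23. Whether the difference between LE and GE changed with pregnancy was not tested, because the genes were chosen on the pregnancy comparison.

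Between GE and S of pregnant gilts, S100A9 was lower in GE by a ratio of 162 (95% counting interval 55.1 to 788). S100A12 was lower in GE by at least 13.9-fold (adjusted p = 0.004, edgeR's quasi-likelihood test). DEFB1 was higher in GE by a ratio of 44.2 (7.52 to 1789, adjusted p = 0.00823) on 42 and 1 counts. Over all genes, 22.3% were higher in S and 18.5% higher in GE. Without gilt P39, P41 or P43, DEFB1 lost the call (adjusted p = 0.0767, 0.0276 and 0.0345), and it also lost it with no block for the gilt (adjusted p = 0.0145). S100A12 lost it without gilt P139, P41 or P43 (adjusted p = 0.0535, 0.0113 and 0.0221) and under DESeq2 (adjusted p = 0.24). SAA3 (adjusted p = 0.0188) and PIGR (adjusted p = 0.663) were not called.

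**Figure D3:**
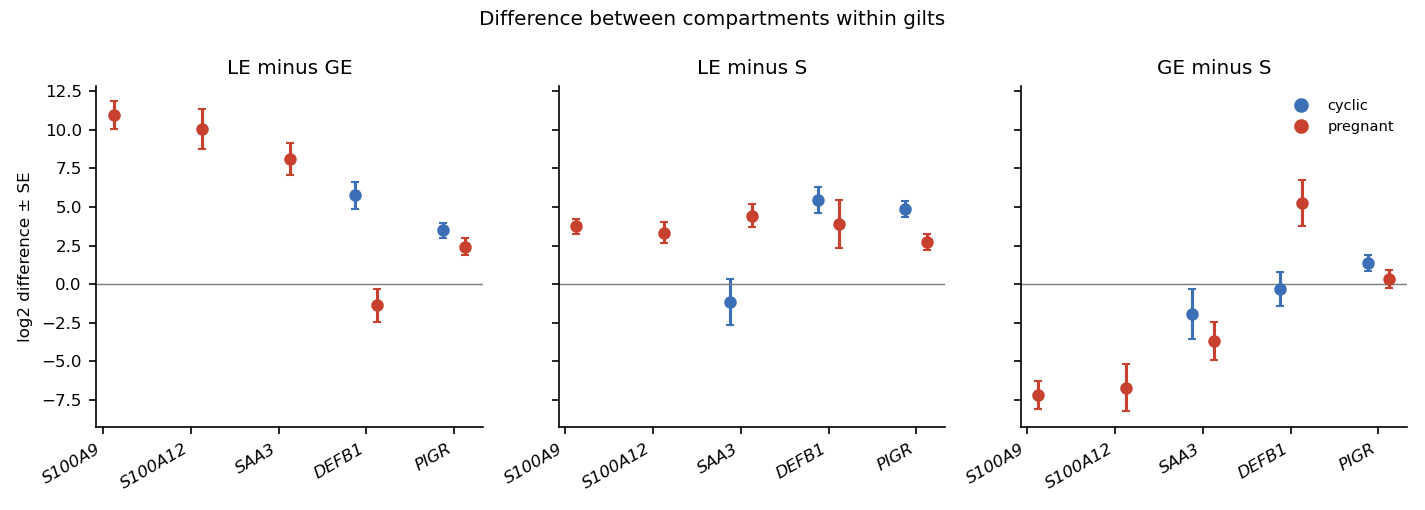
Log2 difference between compartments of the same gilts with its standard error, for cyclic gilts in blue and pregnant gilts in red. LE lies above GE and S for PIGR in both groups of gilts, for DEFB1 in cyclic gilts and for S100A9, S100A12 and SAA3 in pregnant gilts. Genes with counts at or under the floor on both sides are not drawn.

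Genes around this group were taken from 6 lists, which held 120 gene IDs, 59 of them tested between pregnant and cyclic LE. Called genes were those under a false discovery rate of 1% in LE by edgeR's quasi-likelihood test, and in GE, BV and S those with an unadjusted p up to the largest one called in LE, 0.000328. In LE 3.32% of the 12002 genes tested were called. Of the 59, 6 were called higher and 2 lower in pregnant LE, against 2.02% and 1.29% of all genes in these directions. Their median log2 fold change was 0.35, and that of all genes was -0.01. Both other tools called more of them, 17 by edgeR's robust likelihood ratio test and 16 by DESeq2. These tools also called more of all genes in every compartment, as given at the end. The shares of all genes called by the quasi-likelihood test therefore do not apply to their counts. Leaving out single LE libraries left 0 to 2 calls without gilt C40 or C42 or gilt P139, P39 or P43, and 5 without gilt P41.

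In the S100 family outside the calgranulins, 1 of 11 genes tested rose and 2 fell in LE. S100B, a calcium-binding protein best known from glia, rose from 37.9 CPM ± 9.85 to 120 CPM ± 27.3 (SD, n = 4 each, as in the LE values that follow; log2 fold change 1.67, SE 0.23, adjusted p = 0.00354, edgeR). S100A11, a partner of annexins, fell from 137 CPM ± 27.0 to 51.4 CPM ± 16.5 (-1.40, SE 0.24, adjusted p = 0.00778), and S100A6, or calcyclin, from 178 CPM ± 23.4 to 78 CPM ± 20.9 (-1.18, SE 0.21, adjusted p = 0.00911). Members of the family thus went in both directions, and the list median was -0.10.

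Of 12 tested receptors and adaptors of the alarmin pathway, 0 were called in LE, while the robust likelihood ratio test called 1 and DESeq2 2, and 4 had an unadjusted p under 0.05. TLR4, a receptor of calprotectin, chosen here after its values were seen, had 48.1 CPM ± 31.2 in LE of cyclic gilts and 181 CPM ± 7.50 in that of pregnant gilts (adjusted p = 0.0633). Among 19 cytokine receptors and transcription factors that can induce antimicrobial genes, 2 rose and 0 fell. IL6R, the receptor of interleukin 6, rose from 11.5 CPM ± 4.50 to 120 CPM ± 58.0 (log2 fold change 3.38, SE 0.50, adjusted p = 0.00429). CEBPD, a transcription factor of the acute phase response, rose from 67.7 CPM ± 19.6 to 182 CPM ± 10.4 (1.44, SE 0.24, adjusted p = 0.00682).

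Other epithelial antimicrobial genes were mostly undetectable, with 7 of 31 tested in LE, and 2 of the 7 rose. They were MUC1, a membrane mucin, from 141 CPM ± 28.2 to 445 CPM ± 83.1 (log2 fold change 1.67, SE 0.22, adjusted p = 0.00289), and RNASE4, a secreted ribonuclease, from 10.2 CPM ± 3.18 to 29.6 CPM ± 3.10 (1.55, SE 0.26, adjusted p = 0.00754). Of 8 tested genes of the acute phase and iron list, FTH1, the heavy chain of ferritin, rose from 837 CPM ± 64.6 to 1703 CPM ± 290 (1.04, SE 0.18, adjusted p = 0.00885). In the IgA transport list, 2 of 14 genes could be tested, and 0 were called by the quasi-likelihood test and 1 by each of the other tools, with 1 at an unadjusted p under 0.05.

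Outside LE few of these genes were called. In GE, where 0.748% of all genes were called, 2 of 61 tested passed, S100A11 lower (-1.55, SE 0.26, adjusted p = 0.0434) and CD36, a scavenger receptor, higher (2.19, SE 0.36, adjusted p = 0.0434). Leaving out any single GE library other than that of gilt C128 left 0 calls in GE, without gilt C128 there were 3, and the robust likelihood ratio test called 13 and DESeq2 10. In BV 1 of 52 passed, FTL, the light chain of ferritin, which was higher (1.53, SE 0.23, adjusted p = 0.013), where 1.86% of all genes were called. Calls in BV numbered 0 without gilt C128, 3 without gilt C40 and 2 without gilt P41, and the other tools called 9 and 7. In S, where 0.293% of all genes were called, 0 of 53 passed the quasi-likelihood test, while 11 had an unadjusted p under 0.05, and the robust likelihood ratio test called 6 and DESeq2 2.

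**Figure D4:**
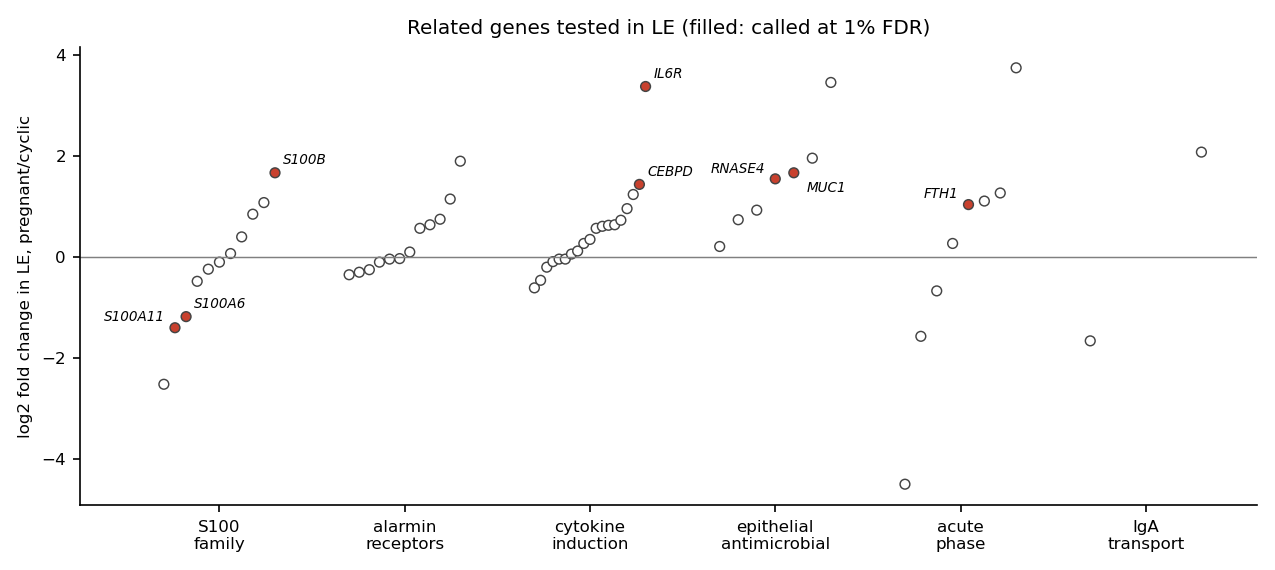
Log2 fold change in LE, pregnant over cyclic, of each tested gene of the 6 related lists, 1 point per gene, filled and named where called at a false discovery rate of 1%. The 6 genes called higher lie between 1.04 and 3.38 and the 2 called lower are S100A11 and S100A6.

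Markers of other cells were followed because neutrophils also carry the calgranulins. In pregnant LE, AZU1, ELANE, MPO and PGLYRP1, proteins of neutrophil granules, were at 0 counts. AZU1 and MPO were at 0 counts in every group of every compartment, so these values do not set LE apart. The receptors CSF3R and CXCR2 had means of 2.64 and 0.410 CPM in pregnant LE, against 3.15 and 0.329 CPM in cyclic LE. In pregnant BV their means were 9.69 and 8.44 CPM. In LE the 19 neutrophil markers summed to 158 to 414 CPM in cyclic gilts and 149 to 1425 CPM in pregnant gilts. Most of the cyclic sum came from MMP8, a collagenase, which fell from 256 CPM ± 134 to 2.53 CPM ± 2.71 (adjusted p = 0.00251, edgeR). ITGAM and FCGR3A were over 10 CPM in pregnant LE, at 17.7 and 10.2 CPM, against 6.04 and 4.36 CPM in cyclic LE. Of 6 neutrophil markers tested in LE, the quasi-likelihood test called 1 higher and 1 lower, and 5 had an unadjusted p under 0.05. The robust likelihood ratio test and DESeq2, which called more of all genes, each called 5.

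Over 17 of the 19 markers, a subset without MMP8 chosen after the values were seen, the sum in LE was 17.0 to 31.4 CPM in cyclic gilts and 43.2 to 61.7 CPM in pregnant gilts. Macrophage markers summed to 42.8 to 134 CPM and 108 to 198 CPM, and lymphocyte markers to 30.9 to 61.3 CPM and 40 to 55.8 CPM. The part of such cells in the levels of S100A9, S100A12, S100A8 and SAA3 was not tested.

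Conceptus markers in LE summed to 57.6 to 138 CPM in cyclic gilts and 46.5 to 75.6 CPM in pregnant gilts. Most of both sums came from GATA2 (means of 63.5 and 29.9 CPM) and PAG1 (16.6 and 14.9 CPM). In cyclic gilts, which carry no conceptus, GATA2 also had means of 74.1 CPM in GE, 24.2 in BV and 29.3 in S. PAG1 had 1.42, 73.1 and 44.5 CPM there. It was matched by its symbol alone, and whether this gene encodes a conceptus protein was not checked. The sums are therefore no measure of conceptus RNA. IL1B2, CYP17A1, CYP19A1, CYP19A3 and CDX2 were at 0 counts in pregnant LE. PAG6, a pregnancy-associated glycoprotein, had 13 counts in pregnant LE and 22 in pregnant S, against 0 in every group of cyclic gilts, and IFNG, or interferon gamma, had 39 counts in pregnant and 3 in cyclic LE. PAG6 and IFNG were singled out after their values were seen, and the part of conceptus RNA in the levels of the alarmins was not tested.

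Of the 10 epithelium markers, KRT7 and KRT8 were called lower in pregnant LE, and the sum of the 10 in LE was 3050 to 3564 CPM in cyclic gilts and 2515 to 2808 CPM in pregnant gilts. In S that sum was 12 to 199 CPM in cyclic and 39.9 to 511 CPM in pregnant gilts, and in BV 3.69 to 54.8 CPM and 186 to 353 CPM without overlap. The part of such RNA in the few S100A9 counts of pregnant BV was not tested. Vessel markers summed to 418 to 985 CPM and 522 to 1141 CPM in LE.

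**Figure D5:**
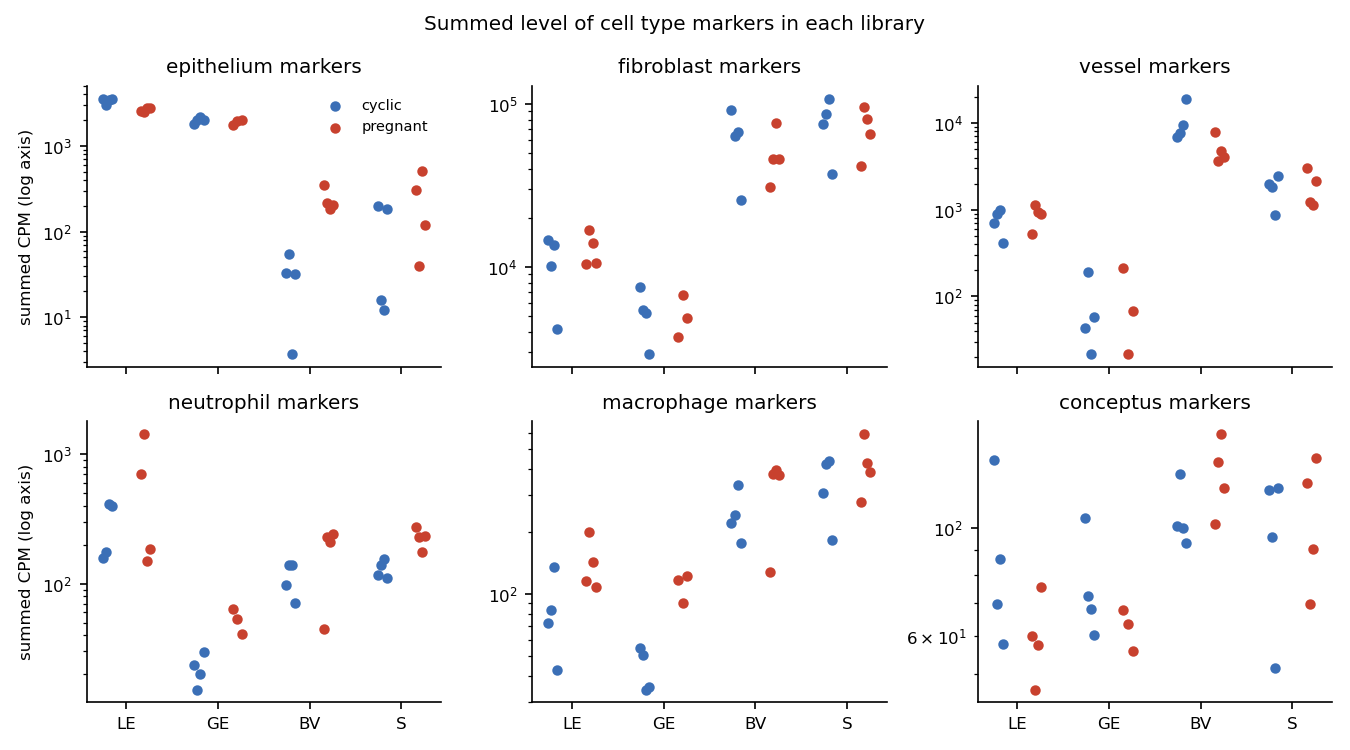
Summed CPM of the marker lists of 6 cell types in every library on a log axis, by compartment, with cyclic gilts in blue and pregnant gilts in red. Epithelium markers lie between 2515 and 3564 CPM in LE, and in BV they are higher in every pregnant than in every cyclic gilt.

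Likeness to other genes was measured as Pearson's r of log2(CPM + 1) over the 31 libraries, which share gilts and normalization, and is a description without a test. For S100A9 the 3 nearest genes were S100A12 (r = 0.961), CA3, a carbonic anhydrase (0.928), and TUBAL3, a tubulin (0.927). S100A12 was nearest to LOC102165844 (0.970), S100A9 and TUBAL3 (0.959). SAA3 was nearest to GJB5, a connexin (0.939), LOC102165844 (0.936) and TLK2, a kinase (0.932), and S100A8 to LOC100153672 (0.963), the neuropeptide NPY (0.957) and LOC106509390 (0.925), on 101 counts.

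DEFB1 was nearest to FXYD4 (0.913), ZNF750 (0.891), a transcription factor of epidermal differentiation, and the cytokine IL24 (0.885). PIGR was nearest to ATP6V1A, a subunit of the vacuolar proton pump (0.912), and to SGPP2 and SLC2A8 (0.903 each). The values of PBD-1, led by AQP5 (0.917), LOC100625810 (0.855) and LOC110255187 (0.838), rest on 15 counts. Those of LTF, led by UFD1 (0.756), OAT (0.743) and NDUFA7 (0.736), rest on 40 counts.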

How the data were processed

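RNA-seq counts of 31 microdissected libraries were used. As the paper's methods state, without versions, the authors used Trim Galore for trimming, Hisat2 for mapping to Sscrofa11.1, nudup of NuGEN against duplicates and QuasR for counts per NCBI gene, and filtered genes by a minimum CPM whose value is not given. The deposited values are whole counts without normalization; amplification from little RNA adds noise to low counts.

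The members, gene lists and tests were chosen with earlier results of these data known. Symbols and sequences came from the NCBI annotation of the same build, to which all 30185 gene IDs matched. Pregnant and cyclic libraries were compared per compartment in edgeR 4.0.16 (R 4.3.3; quasi-likelihood test, TMM, authors' filtered counts), and compartments in a joint fit of 13887 genes with the gilt as a block, since they come from the same animal. Adjusted p-values follow Benjamini and Hochberg. Deviations from group means correlated between compartments of one gilt by 0.0776 to 0.265 on average. Counting intervals of pooled ratios are exact binomial ones at 95% and cover counting error only. The labels name no batch. Alternatives were edgeR's robust likelihood ratio test, DESeq2 1.42.0, RLE, no filter, filterByExpr, CPM of library totals, no block and each library or gilt left out. Fits were tested on simulated data. Genes named from the lists are those called, at most 4 per list and compartment, cell markers over 10 CPM outside their own compartment, and the 3 most alike genes per member; 1 neutrophil marker that this rule names, left out of the sum over 17 markers, and 1 promoter are not reported here.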

Additional observations from a re-analysis of the deposited data

Results flagged for a closer look

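In groups of 4 libraries, the highest or lowest value was compared with the group's range by Dixon's criterion, for 25 groups, of which 5 had a library apart. For normally distributed values, chance alone gives about 1 in 20. Low counts are skewed and the groups share libraries, so the 5 cannot be read against that rate. S100A9 in S was 95.7 CPM in gilt P139, against 15.6 CPM in the next. S100A8 in S was 3.04 CPM in the same library, against 0.341 CPM. DEFB1 in LE was 150 CPM in gilt C128, against 28.5 CPM. PIGR in BV was 13.6 CPM in gilt C42, against 2.4 CPM. PIGR in S was low in gilt C40, with 2.24 CPM against 4.37 CPM.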

How the results depend on the processing

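For LE, GE, BV and S in this order, 398, 89, 206 and 35 genes were called between pregnant and cyclic gilts. The robust likelihood ratio test called 1411, 793, 1216 and 377, and DESeq2 called 1341, 791, 943 and 310. Leaving out 1 library gave 101 to 439, 38 to 110, 77 to 231 and 12 to 52. Genes of the related lists called numbered 8, 2, 1 and 0; the robust test called 17, 13, 9 and 6, DESeq2 16, 10, 7 and 2, and leaving out 1 library gave 0 to 7, 0 to 3, 0 to 3 and 0 to 2. In GE 1 was called with RLE and 1 with filterByExpr, and in BV 3 with no filter. The cause of these differences was not tested.

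Of 81 values of member folds under alternatives, 79 stayed within the spread between replicates. The exceptions were DEFB1 in LE, with a log2 fold change of -5.68 to -3.54 when 1 library was left out, lowest in size without gilt C128, and the lower bound of S100A9 in S, 69.0 to 283-fold, lowest without gilt P139. All 56 values of group levels under RLE or library totals stayed within 1 SD.

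Members called between pregnant LE and S numbered 4 (2 to 4 with 1 gilt left out, 2 without gilt P43). The choice of genes and the filter bear on this count, since S100A12, SAA3 and PIGR were detectable in LE but not in S. Nothing is therefore read from the count. S100A9, detectable in both, kept its call whichever gilt was left out (adjusted p = 0.000226 to 0.00234, edgeR's quasi-likelihood test). Members called between pregnant GE and S numbered 3 (1 to 2 with 1 gilt left out, 1 without gilt P41 or P43). Over all genes, 18.5% were called higher in GE and 22.3% higher in S. The choice of genes and the filter bear on this count too, and nothing is read from it. DEFB1 changed sign between GE and S of cyclic gilts, to 0.38 under DESeq2 and 1.09 without gilt C128 (-1.18 to 1.09 with 1 gilt left out), and between LE and GE of pregnant gilts, to 0.23 without gilt P39 (-2.80 to 0.23). Without the replicate block, DEFB1 between GE and S of pregnant gilts was 5.06 (adjusted p = 0.0145, edgeR) and lost its call, and it changed no other call of a member. No paired analysis was possible for the comparison of pregnant with cyclic gilts because they share no gilt. Depth limits LTF, S100A8 and PBD-1, which have 40, 101 and 15 counts over all libraries.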
